A study of Helianthus annuus with 2 samples.

Results

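The regions described here are 2479 places on the 17 sunflower chromosomes where 1 H3K4me3 peak of developing seeds at 28 days after anthesis (DAA) met 1 peak at 13 DAA, and where the 13 DAA peak was the wider one. They were chosen by their widths and summits. The interval called at 13 DAA had to be at least 1.5 times as wide as the one at 28 DAA, the 2 intervals had to overlap by at least 1 bp and to touch no other interval of the opposite list, and their summits had to lie under 300 bp apart. The 2479 pairs made up 6.63% of the 37400 one-to-one pairs, 2.03% of the 122415 peaks at 28 DAA and 1.52% of the 162824 peaks at 13 DAA on these chromosomes. For comparison, 18897 one-to-one pairs were at least 1.5 times as wide at 28 DAA and 14289 had like widths, all with summits under the same distance, and the other 1735 pairs had summits at least 300 bp apart. A width ratio of at least 1.5 with summits too far apart was found in 164 of those.

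H3K4me3, the trimethylation of lysine 4 of histone H3, is laid down around the start of transcribed genes. In plants it usually sits just after the transcription start site, often as a block of several nucleosomes, and a wider block can mean that more neighbouring nucleosomes carry the mark in enough cells to be seen. In oilseeds the embryo stores fatty acids as triacylglycerol during seed filling, and marks on histones are among the features that change as the seed goes from growth to storage and drying.

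The study asked how this mark is distributed in the seed during oil synthesis. The samples were developing seeds of the high-oleic mutant line CAS-9, harvested late in fatty acid synthesis (28 DAA) and early in it (13 DAA), both without any treatment, grown in chambers under the same conditions and precipitated with an anti-H3K4me3 antibody. A single library (n = 1) stood for each stage, hence without replicate spread, and the stages were not tested against each other. Whole seeds hold several tissues, and fewer cells with the mark and less mark per cell cannot be told apart. The stages are those of the labels. The paper's text gives the larger number of peaks to the other stage than the labels do, whereas the stage written in the peak names matches the label in 100% of the lines of both lists.

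The 2 lists differed as a whole. The list at 28 DAA held 123464 peaks with a median width of 282 bp and a median of 43 fragments at the summit, against 165079 peaks of 187 bp and 19 fragments at 13 DAA. The fragments at a summit are the sequenced DNA pieces piled up at its highest point, worked out for each peak from its fold enrichment and its p-value. The lowest background of a list, called here its genome-wide background, came to 143 fragments in 10 kb at 28 DAA, against 157 at 13 DAA, so the libraries were of similar depth if the peak caller was given the same genome size. The shortest interval that was called measured 161 bp at 28 DAA and 134 bp at 13 DAA. Among all one-to-one pairs the 28 DAA interval was usually the wider one, with a median of 381 bp at 28 DAA and 228 bp at 13 DAA, so the 2479 pairs ran against the direction of the lists.

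The pairs joined a narrow interval at 28 DAA to a broad one at 13 DAA. The 28 DAA widths ran from 161 to 658 bp with a median of 188 bp (quartiles 167 and 226). The 13 DAA widths ran from 242 to 1292 bp with a median of 379 bp (quartiles 315 and 487). In its own list the median 28 DAA width stood at the percentile 18.6 and the median 13 DAA width at the percentile 92.4. Both percentiles follow in part from the rule on widths. As no 28 DAA interval was under 161 bp, no 13 DAA interval under 242 bp could enter the set. That limit lay above the median of the 13 DAA list, 187 bp. The rule also favours narrow 28 DAA intervals, including those of the shortest width. At 28 DAA 424 of the intervals (17.1%) had the shortest width of the list, against 5.24% among pairs of like width, so their true width ratio could not be followed below that length. The width ratio had a median of 1.86 (quartiles 1.66 and 2.23) and reached 7.46, and the 13 DAA interval was 178 bp longer in the median (quartiles 132 and 256). Most of the ratios were modest. A ratio under 2 was found in 1543 pairs, one of 2 to under 3 in 768, and one of 3 or more in 168.

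**Figure D1:**
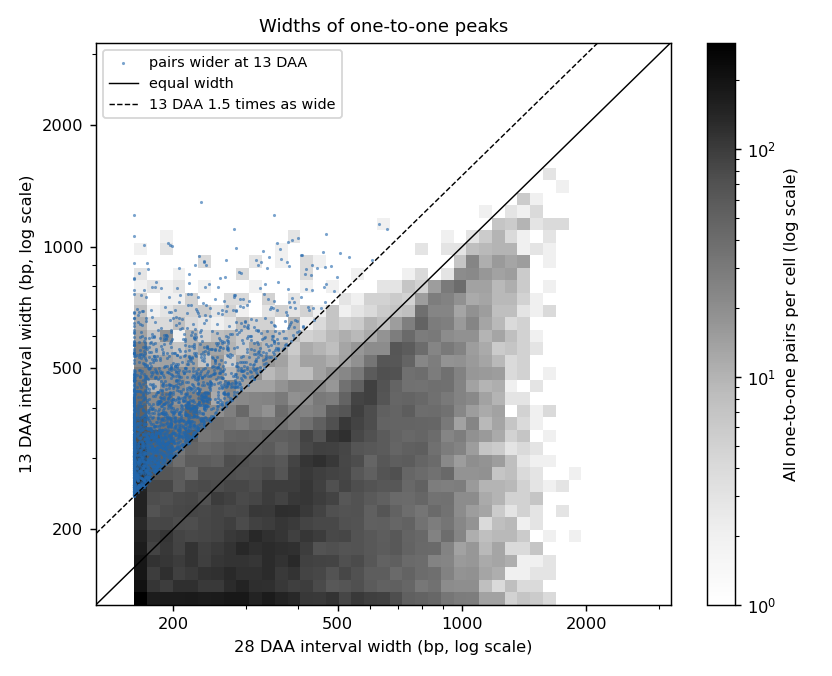
Width of the 28 DAA interval (x, bp, log scale) against that of the 13 DAA interval (y, bp, log scale). Grey cells count all 37400 one-to-one pairs on a log scale, blue points are the 2479 pairs wider at 13 DAA, and the solid and dashed lines mark equal widths and a 13 DAA width of 1.5 times. The blue points crowd against the shortest 28 DAA width of 161 bp, while most of the grey cells lie below the line of equal widths.

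The wider interval mostly enclosed the narrower one. The 28 DAA interval lay inside the 13 DAA interval in 1616 pairs (65.2%, Wilson interval 63.3 to 67.0%), and the 2 shared a median of 178 bp. This follows in part from the rule on widths. The mirror case was more frequent, since the 13 DAA interval lay inside the 28 DAA interval in 93.9% of the pairs wider at 28 DAA. Under 50% of the 28 DAA interval was shared in 126 pairs (5.08%). The 28 DAA summit fell inside the 13 DAA interval in 2337 pairs (94.3%), and the 13 DAA summit inside the narrower 28 DAA interval in 1689 (68.1%).

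The additional length showed no preferred side by coordinate. The 13 DAA interval reached past the 28 DAA interval by a median of 91 bp on the left and 91 bp on the right. The centre of the 28 DAA interval lay in the middle part of the 13 DAA interval, cut into 3 equal parts, in 1168 pairs (47.1%), to the left of it in 653 and to the right in 658. In a single pair, however, the sides were often unequal. Among the 1596 pairs in which both ends of the 13 DAA interval lay beyond the 28 DAA interval, the longer overhang had a median of 142 bp and the shorter one of 48 bp, and the longer was at least 3 times the shorter in 747 (46.8%). The left overhang was the longer in 808 of the 1596 pairs and the right one in 784. The share of 46.8% was not set beside intervals placed freely inside wider ones. Whether unequal sides were more frequent than under such placing was thus not tested. The coding strand of the genes beneath was not used here, so the overhangs could not be read as upstream or downstream.

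The summits of the 2479 pairs were farther apart than those of the other pairs that passed the same limit. Their distance had a median of 70 bp (quartiles 29 and 130), against 40 bp in pairs of like width and 32 bp in pairs wider at 28 DAA. In 977 pairs (39.4%) the summits were under 50 bp apart, and in 884 (35.7%) they were 100 bp or more apart, while 100 bp or more was found in 20.2% of the pairs of like width and 16.7% of the pairs wider at 28 DAA. The classes also differed in 28 DAA summit height. Its median was 20 fragments in the 2479 pairs, 33 in pairs of like width and 96 in pairs wider at 28 DAA. Distances were not compared at the same height, so whether height accounts for the larger distance was not tested. The 28 DAA summit came before the 13 DAA summit by coordinate in 1233 pairs and after it in 1231. In 15 pairs both summits were at the same base.

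The 5 pairs with the largest width ratio show how the intervals sat on each other, with positions in the XRQ genome of the lists and the first base counted as 1. On chromosome 14 the 28 DAA interval ran from 138640459 to 138640619 (161 bp) and the 13 DAA interval from 138640428 to 138641628 (1201 bp), a ratio of 7.46. Their summits were 3 bp apart, and the 13 DAA interval reached 31 bp past its partner on the left and 1009 bp on the right. This summit held 18 fragments at 28 DAA (95% Poisson interval 10.7 to 28.4) and 38 at 13 DAA (26.9 to 52.2), and the fold enrichment was 3.97 at 28 DAA and 4.94 at 13 DAA. The same shape recurred on chromosome 10, where the interval from 231967831 to 231968063 (233 bp) at 28 DAA met the widest 13 DAA interval of the set, from 231967786 to 231969077 (1292 bp), with 25 and 46 fragments at 28 and 13 DAA. There the left ends were 45 bp apart and the right ends 1014 bp. In both pairs the 2 lists placed summit and left end alike, and the 13 DAA interval continued for about the length of several nucleosomes to the right.

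The other 3 extended to both sides. On chromosome 9 the 28 DAA interval from 124296258 to 124296418 (161 bp) lay within the 13 DAA interval from 124295990 to 124297052 (1063 bp), with 18 fragments at 28 DAA and 39 at 13 DAA. On chromosome 8 the interval from 135333081 to 135333250 (170 bp) at 28 DAA lay within that from 135332583 to 135333594 (1012 bp) at 13 DAA, with 20 and 41 fragments at 28 and 13 DAA. The second pair on chromosome 9 ran from 159753644 to 159753804 (161 bp) at 28 DAA and from 159753208 to 159754118 (911 bp) at 13 DAA, and had 15 fragments at 28 DAA (8.40 to 24.7) and 42 at 13 DAA (30.3 to 56.8). In all 5 pairs the 13 DAA summit held more fragments, but the Poisson intervals of 28 and 13 DAA were clear of each other only in this second pair on chromosome 9.

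**Figure D2:**
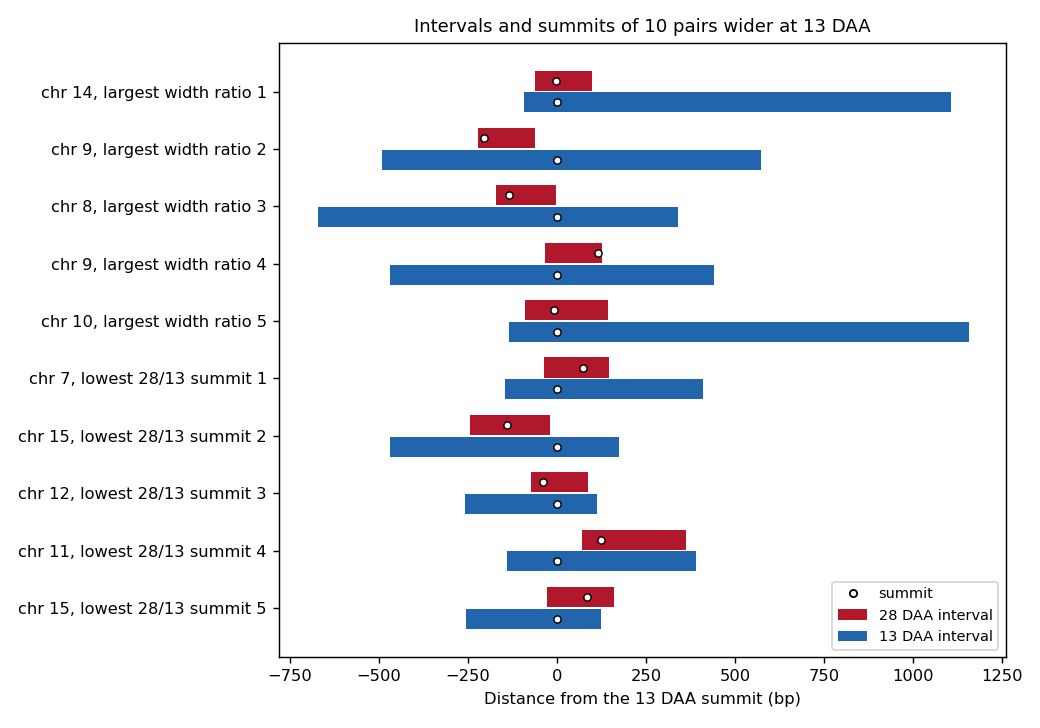
Intervals at 28 DAA (red, upper bar of each pair) and 13 DAA (blue, lower bar), as distance from the 13 DAA summit in bp, with each summit as a white point. The upper 5 pairs have the largest width ratio and the lower 5 the lowest ratio of 28 over 13 DAA summit fragments. In the pairs of chromosomes 14 and 10 with the largest ratio the left ends and summits nearly coincide and the blue bar runs on to the right.

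Width and enclosure went together within the set, in part because a shorter interval fits more easily inside a longer one. In pairs with a ratio of 3 or more the 28 DAA interval lay inside the 13 DAA interval in 86.9% of 168, compared with 73.6% at a ratio of 2 to under 3 and 58.7% under 2. The 13 DAA interval reached past its partner at one end only in 13.1%, 27.1% and 42.3% of the same groups. Where both ends lay beyond, the longer overhang was at least 3 times the shorter in 46.6%, 47.3% and 46.5% of them. Of the 16 pairs with a 13 DAA interval over 1000 bp, 15 enclosed the 28 DAA interval, whose width was 161 to 658 bp with a median of 315.5 bp. The widest after those named above were on chromosome 9 from 203293748 to 203294098 at 28 DAA (351 bp) and from 203292971 to 203294171 at 13 DAA (1201 bp), and on chromosome 11 from 123606264 to 123606892 at 28 DAA (629 bp) and from 123606164 to 123607300 at 13 DAA (1137 bp). The fifth, on chromosome 10 from 64108286 to 64108943 at 28 DAA (658 bp) and from 64108322 to 64109428 at 13 DAA (1107 bp), had 48 fragments at 28 DAA and 35 at 13 DAA. The wider interval thus did not hold the higher summit count in every pair. In the last 2 of these the 28 DAA summit held more fragments than the 13 DAA summit (23 and 17 on chromosome 11). The Poisson intervals of 28 and 13 DAA overlapped in both, however. They were 14.6 to 34.5 and 9.9 to 27.2 on chromosome 11, and 35.4 to 63.6 and 24.4 to 48.7 on chromosome 10.

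Summit height differed between the stages too. Summit height and width come from the same peaks, so the following values describe the chosen pairs and are no separate evidence. The 28 DAA summits held 12 to 103 fragments with a median of 20 (quartiles 17 and 25), and the 13 DAA summits 11 to 148 with a median of 26 (quartiles 21 and 32). The 28 DAA summit had fewer fragments than the 13 DAA summit in 1822 pairs (73.5%), compared with 16.9% of all one-to-one pairs. Divided by the genome-wide background of the own list, the summit stood at a median of 8.70 times background at 28 DAA and 12.4 times at 13 DAA. The log2 of the 28 over 13 DAA ratio of these scaled summits had a median of -0.52 (quartiles -0.83 and -0.13), against 0.42 in pairs of like width, 1.91 in pairs wider at 28 DAA and 1.32 in all one-to-one pairs.

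The scaled summit was higher at 28 DAA in 491 pairs (19.8%, Wilson interval 18.3 to 21.4%) and lower in 1988. It was higher at 28 DAA in 66.1% of the pairs of like width, 96.4% of the pairs wider at 28 DAA and 79.3% of all one-to-one pairs. By a factor of at least 1.5, it was higher at 28 DAA in 145 pairs (5.85%) where 66.6% of all one-to-one pairs were, and lower in 1111 (44.8%) where 7.39% of all one-to-one pairs were. The fold enrichment, the peak caller's ratio of summit to local background, had a median of 4.71 at 28 DAA, against 5.81 at 13 DAA, with a median ratio of 0.804. It was higher at 28 DAA in 522 pairs (21.1%, 19.5 to 22.7%), against 60.2% of all one-to-one pairs. By a factor of at least 1.5 it was higher at 28 DAA in 19 pairs (0.766%) where 23.4% of all pairs were, and lower in 703 (28.4%) where 9.41% were. On both scales the 13 DAA peak was the taller one in about 4 of 5 pairs, the reverse of the one-to-one pairs at large.

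**Figure D3:**
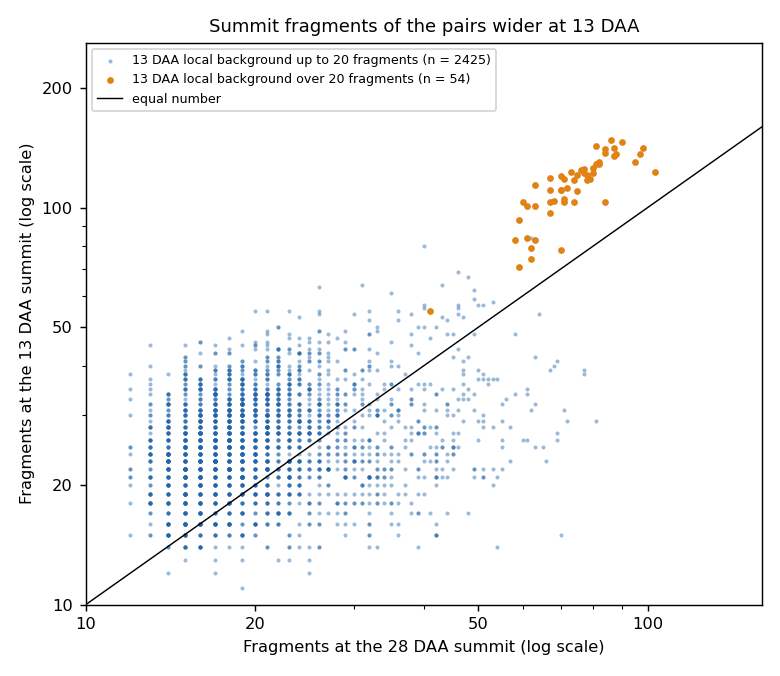
Fragments at the 28 DAA summit (x, log scale) against fragments at the 13 DAA summit (y, log scale) in the 2479 pairs, with the line of equal numbers. Blue points are 2425 pairs with a local background of up to 20 fragments at 13 DAA, and orange points 54 pairs above it, most of which stand apart at the upper right and all of which lie above the line.

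The pairs were made of weak 28 DAA peaks and fairly strong 13 DAA peaks. In its own list the median summit was at the percentile 12.6 at 28 DAA and 82.3 at 13 DAA by fragments, and at the percentile 27.5 at 28 DAA and 69.6 at 13 DAA by fold enrichment. The median −log10 q-value was 7.57 at 28 DAA and 11.3 at 13 DAA. A 28 DAA summit over 50 fragments was found in 105 pairs (4.24%), against 32.5% of the pairs of like width and 77.3% of the pairs wider at 28 DAA. A 13 DAA summit over 50 fragments was found in 88 (3.55%), against 5.26% and 1.64% in the same order and 3.22% of all one-to-one pairs. Of these 88 pairs, 54 had a local background of over 20 fragments at 13 DAA, a group described further on, and without all such pairs it was 34 of 2425 (1.40%), against 4.20%, 1.54% and 2.58%. The strong peaks of the 28 DAA list were thus nearly missing from the set.

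Read from the side of all one-to-one pairs, the share that was wider at 13 DAA fell steadily with the 28 DAA summit. It was 31.4% (405 of 1291) for 28 DAA summits of up to 15 fragments, 22.4% at 16 to 20, 15.95% at 21 to 25, 9.65% at 26 to 30 and 6.05% at 31 to 40. It was 3.63% at 41 to 50 fragments, 1.63% at 51 to 75 and 0.639% at 76 to 100. Over 100 fragments it was 1 of 11803 pairs (0.00847%, Wilson interval 0.0015 to 0.048%), the pair on chromosome 17 from 113114606 to 113114965 at 28 DAA and from 113114346 to 113114957 at 13 DAA, with 103 and 123 fragments at 28 and 13 DAA. With the 13 DAA summit the share had no single direction. It was 2.14% at up to 15 fragments, climbed to 11.1% at 31 to 40, dropped to 3.81% at 51 to 75 and was 22.6% (44 of 195) over 100 fragments.

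**Figure D4:**
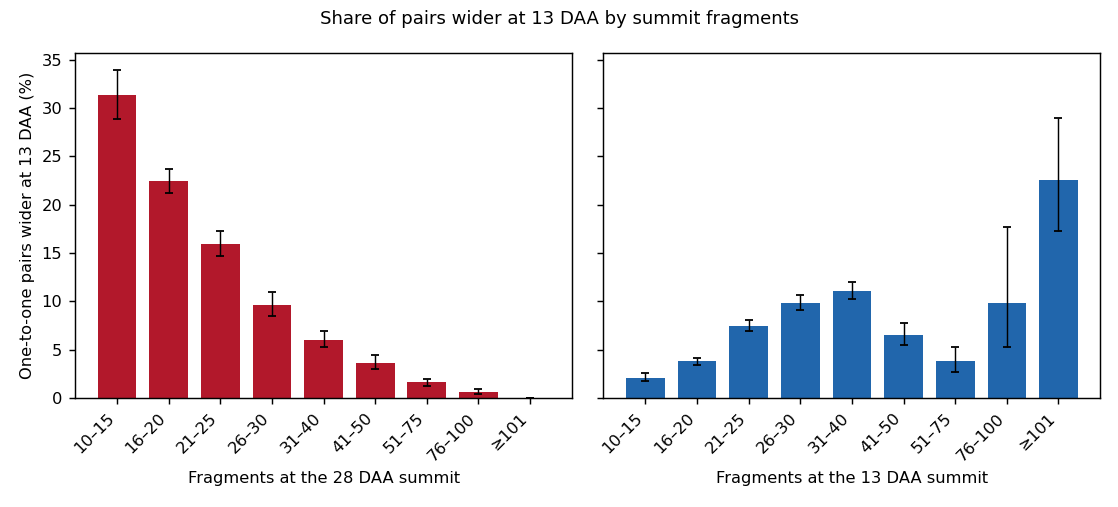
Share of all one-to-one pairs that were wider at 13 DAA (y, %), by the number of fragments at the 28 DAA summit (left) and at the 13 DAA summit (right). Bars are shares and error bars Wilson 95% intervals, which cover counting error only. The left panel descends from 31.4% to 0.00847%, and the right panel has a first maximum of 11.1% at 31 to 40 fragments and a second of 22.6% at 101 or more.

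Since the 28 DAA summit was low, pairs were also set side by side at the same 28 DAA height. At 16 to 20 fragments at 28 DAA, the 959 pairs wider at 13 DAA had a median of 25 fragments at 13 DAA, against 20 in 2673 pairs of like width and 17 in 535 pairs wider at 28 DAA. Their median widths were 181 bp at 28 DAA and 372 bp at 13 DAA, against 197 and 208 bp in pairs of like width. The same order held at up to 15 fragments at 28 DAA, with 23, 19 and 17 fragments at 13 DAA, and at 41 to 50, with 29, 23 and 18. At each height from 12 to 50 fragments the pairs wider at 13 DAA thus had the highest median at 13 DAA. This order follows in part from the rule on widths and is no separate evidence. Width and summit fragments at 13 DAA rose together across all one-to-one pairs (rank correlation 0.55). At 41 to 50 fragments the 93 pairs wider at 13 DAA also had the highest local background at 28 DAA. It was 773 fragments per 10 kb, against 554.5 in pairs of like width and 403 in pairs wider at 28 DAA. Their 28 DAA fold enrichment was the lowest, 3.42 against 4.63 and 6.16. At up to 15 fragments all 3 classes had 142.9 per 10 kb and a fold enrichment of 4.545. At 16 to 20 fragments the background was 162, 149 and 155 in the same order, and the fold enrichment 5.151, 5.196 and 5.195.

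Within the set, height and width moved together only loosely. The median log2 of the 28 over 13 DAA scaled summit was -0.44 at a ratio under 2, -0.62 at 2 to under 3 and -0.78 at 3 or more. The scaled summit was higher at 28 DAA in 23.9%, 14.5% and 7.14% of these groups. Across the 2479 pairs the rank correlation of the width ratio with this log2 was -0.228 (Pearson's r -0.23), and across all 37400 one-to-one pairs it was -0.716 (Pearson's r -0.663). The 2 widths of a pair correlated with a rank correlation of 0.602, in part because the rule sets a lower limit of one on the other. All points come from the same 2 libraries and are regions, not replicates.

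At the far end were pairs whose 28 DAA summit was lowest beside their 13 DAA summit. On chromosome 7 the interval from 65392831 to 65393012 (182 bp) at 28 DAA held 13 fragments (6.92 to 22.2) with a fold enrichment of 4.24, and the interval from 65392722 to 65393278 (557 bp) at 13 DAA held 45 (32.8 to 60.2) with a fold enrichment of 13.9. The log2 ratio of the scaled summits was -1.92. On chromosome 15 the pair from 125934540 to 125934762 at 28 DAA and from 125934314 to 125934956 at 13 DAA had 12 fragments at 28 DAA and 38 at 13 DAA, and that from 50874672 to 50874860 at 28 DAA and from 50874446 to 50874822 at 13 DAA had 12 and 35. On chromosome 12 the pair from 96832000 to 96832160 at 28 DAA and from 96831814 to 96832184 at 13 DAA had 13 fragments at 28 DAA and 40 at 13 DAA. On chromosome 11 the pair from 103100849 to 103101139 at 28 DAA and from 103100637 to 103101169 at 13 DAA had 15 and 45. In these 5 the Poisson intervals of the 2 libraries did not overlap. The 5 were picked as the lowest ratios of the 2479 pairs, which favours such a gap, so it is no separate evidence. Their local background at 28 DAA was at or within 2 fragments per 10 kb of its genome-wide value.

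At the opposite end were pairs that were wider at 13 DAA and taller at 28 DAA. The largest difference was on chromosome 12, from 36200500 to 36200723 (224 bp) at 28 DAA and from 36200545 to 36200948 (404 bp) at 13 DAA, with 70 fragments (54.6 to 88.4) at 28 DAA and 15 (8.40 to 24.7) at 13 DAA and a log2 ratio of 2.09. Its summits were 275 bp apart, and its fold enrichment was 5.42 at 28 DAA and 5.16 at 13 DAA, over a local background of 752 fragments in 10 kb at 28 DAA, against 157 at 13 DAA. On chromosome 15 the pair from 146521203 to 146521473 at 28 DAA and from 146521158 to 146521585 at 13 DAA had 54 fragments at 28 DAA and 14 at 13 DAA, with a local background of 1094 and 157 per 10 kb. On chromosome 17 the pair from 111372198 to 111372381 at 28 DAA and from 111372228 to 111372518 at 13 DAA had 66 and 23 fragments. That on chromosome 9, from 198656144 to 198656369 at 28 DAA and from 198656115 to 198656463 at 13 DAA, had 48 and 17. That on chromosome 4, from 165759183 to 165759391 at 28 DAA and from 165759121 to 165759554 at 13 DAA, had 42 and 15.

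The local background differed between the 2 directions. The sources used here do not say whether it was counted in an input or in the ChIP library itself, and in a ChIP library it would hold neighbouring H3K4me3 fragments as well, which would also enter the fold enrichment. In the 491 pairs with the higher scaled summit at 28 DAA it had a median of 455 fragments in 10 kb at 28 DAA, against 197 at 13 DAA, and the fold enrichment was 3.96 at 28 DAA and 5.61 at 13 DAA. In the 1988 other pairs the background was 175.5 at 28 DAA and 264 at 13 DAA, and the fold enrichment 4.80 and 5.87. Relative to the genome-wide value, the local background was higher at 28 DAA in 773 of all pairs wider at 13 DAA (31.2%), against 78.8% of all one-to-one pairs. The genome-wide value itself applied to 704 of the 28 DAA peaks (28.4%) and 416 of the 13 DAA peaks (16.8%), compared with 10.9% and 29.1% among all one-to-one pairs. A high local background lowers the fold enrichment and can shorten the interval that passes the threshold. Its part in the width of these pairs was not tested.

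The limits of the rule run between neighbouring values. Just inside the width limit were pairs with a ratio of 1.5 on chromosome 4 (178 bp at 28 DAA and 267 bp at 13 DAA), chromosome 6 (176 and 264 bp) and chromosome 12 (218 and 327 bp). Their summits held 21, 39 and 17 fragments at 28 DAA and 22, 27 and 37 at 13 DAA. Just outside, with 1.498, were pairs on chromosome 10 (285 and 427 bp), chromosome 14 (255 and 382 bp) and chromosome 12 (245 and 367 bp), which held 25, 25 and 17 fragments at 28 DAA and 25, 28 and 18 at 13 DAA. The last pairs under the summit limit had summits 299 bp apart on chromosomes 9 and 16 and 298 bp apart on chromosome 14, and the first beyond it had summits 300 bp apart on chromosomes 5, 7 and 13. On both sides of the width limit the summits overlapped in height.

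The pairs stood more alone in the 28 DAA list than other pairs did. The gap to the nearest other 28 DAA peak had a median of 6709 bp, against 2173 bp for pairs of like width and 576 bp for pairs wider at 28 DAA. Another 28 DAA peak lay within 300 bp of 5.12% of the pairs, within 1000 bp of 451 (18.2%, Wilson interval 16.7 to 19.8%) and within 5000 bp of 40.9%. In pairs of like width these shares were 18.2%, 39.0% and 61.2%, and in pairs wider at 28 DAA 34.0%, 58.8% and 74.6%. A 28 DAA peak of over 50 fragments lay within 10 kb of 751 pairs (30.3%), against 51.7% and 65.6%.

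In the 13 DAA list the order at short range was the opposite. Another 13 DAA peak lay within 300 bp of 352 pairs (14.2%), against 8.84% of the pairs of like width and 3.32% of the pairs wider at 28 DAA. Within 1000 bp it was 653 (26.3%, 24.6 to 28.1%), against 26.2% and 24.4%, and within 5000 bp 50.2% (48.3 to 52.2%), against 54.5% and 56.4%. The order thus turned between 300 and 5000 bp, and the gap to the nearest 13 DAA peak had medians of 4989, 4150 and 3862 bp. No other peak of either list lay within 1000 bp of 1626 pairs (65.6%), against 53.4% of the pairs of like width and 38.8% of the pairs wider at 28 DAA. The rule keeps only partners that touch no other interval of the opposite list, which bears on neighbours at short range, and its part in these shares was not tested.

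**Figure D5:**
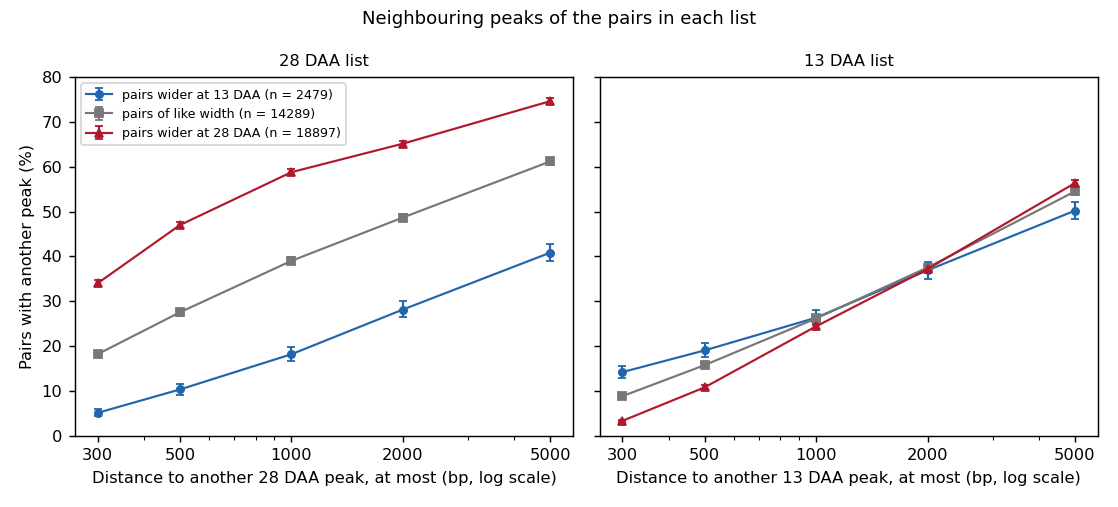
Share of pairs (y, %) with another peak of the 28 DAA list (left) or of the 13 DAA list (right) within 300, 500, 1000, 2000 or 5000 bp (x, log scale). Points are shares with Wilson 95% intervals for pairs wider at 13 DAA, pairs of like width and pairs wider at 28 DAA. The 3 lines lie apart on the left at every distance (18.2, 39.0 and 58.8% within 1000 bp) and cross on the right, with 14.2, 8.84 and 3.32% within 300 bp and 50.2, 54.5 and 56.4% within 5000 bp.

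The pairs were spread over the whole genome. They made up 5.61% of the one-to-one pairs on chromosome 17 (138 pairs) at the lowest and 7.56% on chromosome 14 (192 pairs, Wilson interval 6.59 to 8.65%) at the highest. Per megabase there were 0.553 on chromosome 2 and 1.10 on chromosome 14. The median number of fragments per chromosome was 18 to 21 at 28 DAA and 24 to 28 at 13 DAA, and the median ratio 1.79 to 1.95. Along the chromosomes, cut into 10 equal segments up to the last peak, the share of one-to-one pairs was lowest in segment 7, with 6.03%, and highest in segments 9 and 10, with 6.94% in both.

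The distances between the pairs were long, as 2479 pairs over 17 chromosomes are sparse. The nearest other one was a median of 324394 bp away, 138 of the 2479 had one within 10000 bp and 598 within 100000 bp. These values were not set beside equally many other one-to-one pairs, so whether the pairs were clustered or spread out was not tested. Of 1552 windows of 1 megabase with such a pair, 940 held only 1 and 22 held at least 5. The most, 11, were on chromosome 12 from 161000001 to 162000000. All 11 belonged to a group with a very high local background, which is described next.

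A small group of the pairs differed from the rest in height, background and neighbours. In 54 of the 2479 the local background at 13 DAA was above 20 fragments, a limit chosen after the values had been seen, while in 2412 it was at most 10. In the 54 the summit held a median of 74 fragments at 28 DAA (41 to 103) and 117.5 at 13 DAA (55 to 148), but the fold enrichment was only 2.11 at 28 DAA (1.75 to 3.57) and 2.17 at 13 DAA (1.75 to 3.74). Their local background reached a median of 2041 fragments in 10 kb at 28 DAA, against 3925 at 13 DAA. In the 2425 others the summit held 19 fragments at 28 DAA and 26 at 13 DAA, with a fold enrichment of 4.75 and 5.84 and a background of 190 and 242 per 10 kb. The 28 DAA summit had fewer fragments in 54 of the 54 pairs and the 28 DAA background was lower in 54 of 54. The fold enrichment was higher at 28 DAA in 28 of 54. Choosing the 54 by their 13 DAA background sets that background apart by definition. It also favours tall summits, since only a tall summit passes the threshold over so high a background. Among pairs wider at 13 DAA, the choice favours the first 2 counts as well. They were not made for all 248 one-to-one pairs with such a background. A 28 DAA background above 20 fragments was found in 51 of the 54 and in 19 of the 2425 others.

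These 54 pairs lay in crowded places. Another peak lay within 1000 bp of 36 of them (66.7%) in the 28 DAA list and 51 (94.4%) in the 13 DAA list, against 17.1% and 24.8% of the others. They were on 11 chromosomes, and 21 were on chromosome 12. Of those, 3 stood between 106517798 and 106528568, 6 between 158355765 and 158469969, 11 between 161386083 and 161889249, and 1 from 165895196 to 165895518. All one-to-one pairs with such a background numbered 248, of which 96 were on chromosome 12, and 21.8% of the 248 (Wilson interval 17.1 to 27.3%) were wider at 13 DAA, against 6.53% of the other 37152. What these places are was not tested, since the genome sequence was not used here.

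The tallest summits of the set belonged to this group. The most fragments at 13 DAA were on chromosome 12 from 106528136 to 106528405 (270 bp) at 28 DAA and from 106528136 to 106528568 (433 bp) at 13 DAA, with 86 fragments (68.8 to 106) at 28 DAA and 148 (125 to 174) at 13 DAA. The fold enrichment there was 2.16 at 28 DAA and 2.24 at 13 DAA. Next came chromosome 12 from 165895298 to 165895484 at 28 DAA and from 165895196 to 165895518 at 13 DAA, with 90 and 146 fragments, and from 161677607 to 161677776 at 28 DAA and from 161677544 to 161677878 at 13 DAA, with 81 and 143. The pairs from 158357598 to 158358001 at 28 DAA and from 158357401 to 158358018 at 13 DAA, and from 161386121 to 161386367 at 28 DAA and from 161386083 to 161386479 at 13 DAA, both held 141 at 13 DAA, with 98 and 87 at 28 DAA. After the pair on chromosome 17 that led at 28 DAA and the one with 98, the most fragments at 28 DAA were 97 on chromosome 12 from 161590299 to 161590555 (136 at 13 DAA, from 161590303 to 161590739), 95 on chromosome 17 from 113115796 to 113115982 (130 at 13 DAA, from 113115741 to 113116022) and the 90 given above. All of these had a fold enrichment between 1.75 and 2.55 in both lists, so a tall summit here did not mean a peak far above its surroundings.

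The second maximum in the share by 13 DAA summit, over 100 fragments, came from the same places. Without the 54 pairs the highest 13 DAA summit of the set was 84 fragments and the highest 28 DAA summit 81. The median log2 of the 28 over 13 DAA scaled summit was -0.78 in the 54 and -0.50 in the 2425 others, and the median width ratio 1.84 and 1.86. The rank correlation of the 28 and 13 DAA summit fragments across the set was 0.276 with the 54 pairs (Pearson's r 0.644) and 0.227 without them (Pearson's r 0.249, n = 2425), so the linear relation rested on them.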

How the data were processed

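H3K4me3 peaks were analyzed in 2 libraries of developing seeds, at 28 and 13 DAA. According to the methods, the authors filtered the reads, aligned them with BWA to the XRQ assembly, removed duplicates with Picard and called peaks with MACS2. An input control and pooling are not given in the sources used here. The authors deposited 1 list per stage with interval and summit positions (bp), a score that is 10 times the −log10 q-value, a fold enrichment (the ratio of summit to local background), and the p-value and q-value as −log10. The largest q-value was 0.000881 at 28 DAA and 0.000999 at 13 DAA.

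Pairs were built from the 17 chromosomes. For the summit fragments, fold enrichment and p-value were solved together (pseudocount 1, tolerance 0.001 on −log10 p), which gave a whole number for 100% of the peaks. Local backgrounds came out as whole numbers of fragments per 10 kb within 0.05. The code was tested on simulated data. Poisson and Wilson 95% intervals cover counting error only. Regions were named by rule (the 5 with the largest width ratio, the widest 13 DAA interval, and the most summit fragments at 28 and at 13 DAA, the 5 at each end of the summit ratio, and the 3 nearest each limit on either side). The pairs, limits and rules were chosen with earlier results of these data known. There were 0 columns of unmapped samples. Gene models and the genome sequence of the lists' build were not used here. Python 3.11.15, numpy 2.4.6, pandas 2.3.3, scipy 1.17.1 and matplotlib 3.10.9 were used.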

Additional observations from a re-analysis of the deposited data

Results flagged for a closer look

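Sequences outside the 17 chromosomes were not used above, and the rule found pairs there too. On unplaced sequences 110 of 547 one-to-one pairs (20.1%, Wilson interval 16.96 to 23.7%) were wider at 13 DAA by the same limits, against 6.63% on the chromosomes. Their summits held a median of 56 fragments at 28 DAA and 77.5 at 13 DAA, with a fold enrichment of 3.25 at 28 DAA and 3.47 at 13 DAA. A 13 DAA local background above 20 fragments was found in 55 of the 110 and in 220 of all 547 pairs there (40.2%), compared with 54 of the 2479 and 248 of all 37400 pairs on chromosomes. On plastid and mitochondrial sequences, whose DNA is not wrapped on histones, the rule found 10 of 78 pairs (12.8%, 7.12 to 22.0%), with 44 fragments at 28 DAA and 63 at 13 DAA and a fold enrichment of 3.61 and 4.20, and 38 of the 78 had such a background. These values have no control sample beside them.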

How the results depend on the processing

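The main values were 2479 pairs, of which 21.1% had the higher fold enrichment at 28 DAA, 19.8% the higher scaled summit at 28 DAA, 65.2% the 28 DAA interval inside and 18.2% another 28 DAA peak within 1000 bp. Under other settings 32 values stayed within counting error or 1.5 times the count and 23 moved further. Peaks with q-values up to 1e-10 gave 459 pairs, 2.70% of 17017 one-to-one pairs, against 6.63% of 37400 in the main setting. Of the 459, 26.4% were higher in fold at 28 DAA, 68.2% had the 28 DAA interval inside and 15.5% had a neighbour. With the looser of the other width limits there were 4037 pairs, 10.8% of the one-to-one pairs (24.7% by fold, 25.4% by scaled summit, 56.6% inside). With a ratio of at least 2 there were 936, or 2.50% (17.95%, 13.1%, 76.0%, and 14.7% with a neighbour). Widths divided by the shortest of the own list gave 4047 pairs, or 10.8% (24.7%, 25.4%, 56.4%). With lists of equal length, strongest peaks first, 18.2% were higher in fold at 28 DAA. An overlap of 50% gave 68.7% inside and no summit limit 63.1%. Summits under 100 bp apart gave 1595 pairs, 4.265% of the one-to-one pairs, with 73.8% inside. Joining peaks within 300 bp left 11.7% with a neighbour. Some shifts follow from the settings themselves, such as the number of pairs under another width limit or the neighbours left after joining. The cause of the other shifts was not tested. Without the pairs of high 13 DAA background, an alternative added after seeing the data, all 5 values stayed within these limits.

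No paired analysis was possible because each stage has 1 library, and leaving out a replicate was not possible for the same reason. Base composition and motifs were not run. At a median of 20 fragments per summit at 28 DAA, a single summit is known to about a factor of 1.5 either way.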
